A study of Mus musculus with 6 samples.

Results

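The genes described here make up the degradative machinery of the cell, namely the cathepsins and other enzymes of the lysosome, the membrane proteins that bound it, the proton pump that acidifies it, and the autophagy genes that deliver cargo to it. They were chosen by gene symbol from a list of 45 genes, of which 42 had a row in the deposited expression table of 19730 rows. The other 3 (Ctsd, Ctss and Map1lc3b, encoding cathepsin D, cathepsin S and an LC3 protein) were not analysed here. The RNA-seq libraries came from primary cultures of mouse mesangial cells, which hold up the capillaries of the glomerulus. There were 3 Control libraries and 3 from cells given transforming growth factor-β1 (TGF-β1) at 10 ng/ml for 72 h. Cells of both groups were at passages 3 to 6 and grew in Dulbecco's Modified Eagle Medium with 25.5 mM glucose and 20% foetal bovine serum, so that high glucose and serum were part of the Control state too. The mouse strain and age, and whether the 3 libraries of a group came from separate cultures, were not given in the sources used here. The p-values therefore measure the spread between these libraries, which may be technical.

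Lysosomes are acidic vesicles that break down proteins, glycans and lipids with a large set of hydrolases, most of which are active only at low pH. The low pH is set by the vacuolar ATPase (V-ATPase), a rotary proton pump with a cytosolic ATP-hydrolysing sector (V1) and a membrane-embedded proton-conducting sector (V0). Macroautophagy wraps cytoplasm in a double membrane and fuses it with the lysosome, and in mesangial cells, which also turn over glomerular matrix, cathepsins are among the enzymes that can degrade matrix proteins. Transcription factor EB (TFEB) and its relative TFE3 activate many lysosomal and autophagy genes through promoter sites built around the letters CACGTG.

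Values are FPKM, fragments scaled to transcript length and to the mapped fragments of the library, as the authors deposited them. The steps between low values fitted whole fragments at a depth of 10.1 to 11.1 M per library, if a fragment length of 200 nt is assumed, so 1 FPKM in a 2 kb transcript stood for 20.2 to 22.1 fragments. Over all tested rows, library profiles correlated at 0.876 to 0.940 within groups and 0.818 to 0.853 between them. Of the mesangial markers, Acta2 averaged 997 FPKM in Control and 3887 with TGF-β1, Pdgfrb 37.5 and 29.2, and Gata3 1.76 and 1.03, while Itga8, Thy1 and Des averaged under 1 FPKM. Other cell types were looked for because leukocytes and tubule cells are rich in lysosomes. The 6 measured leukocyte markers summed to 8.27 to 9.83 FPKM in Control and 2.33 to 3.27 with TGF-β1, most of the Control sum being Csf1r, and Ptprc was listed at 0 in every Control library. The 4 measured tubule markers summed to 125 to 160.2 FPKM in Control and 6.16 to 7.40 with TGF-β1, of which Cdh16 made up 91.6% and 93.2%. The 5 podocyte markers summed to 19.7 to 24.9 and 12.6 to 13.7 FPKM with Nphs1 averaging under 1, and the 6 endothelial markers to 0.704 to 0.799 and 0.915 to 1.53 FPKM. The summed markers of tubule and podocytes, and Csf1r among those of leukocytes, were thus lower alongside the falls described next, while Cd68 had overlapping groups (2.79 ± 0.836 and 2.22 ± 0.448 FPKM). The part of these cell types in those results was not tested.

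Among the degradative genes, more fell than rose with TGF-β1. By limma on log2(FPKM + 1) with Benjamini-Hochberg adjustment over all 11898 rows whose mean was at least 1 FPKM, 22 of the 41 members tested changed at an adjusted p under 0.05, 7 of them higher and 15 lower. Across all tested rows 48.1% changed, 24.5% higher and 23.6% lower, whereas 53.7% of the members changed, 17.1% higher and 36.6% lower. The share of members that changed was therefore near the background, and the split between rises and falls leaned towards falls. The median log2 change was -0.18 over members and -0.02 over all tested rows, and the median size of a change was 0.35 and 0.40. The soluble enzymes were 22 of the 41 members tested, and 2 of them rose and 10 fell (9.09% and 45.5%). Falls were not particular to them. Of 4 membrane proteins 2 fell, of 2 transcription factors 1 fell, and none of either group rose. Of the 4 V-ATPase members 2 rose and none fell. Of the 9 autophagy members 3 rose and 2 fell (33.3% and 22.2%), against 24.5% and 23.6% of all tested rows. When each library was rescaled to the sum of its protein-coding rows, 1 of these 9 rose and 2 fell. In the groups where limma called no rise or no fall among the members tested, none of these was found at an unadjusted p under 0.05 either. These counts describe the lists and were not tested against each other. The libraries were of bulk RNA, in which fewer cells of a type and less RNA per cell cannot be told apart.

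**Figure D1:**
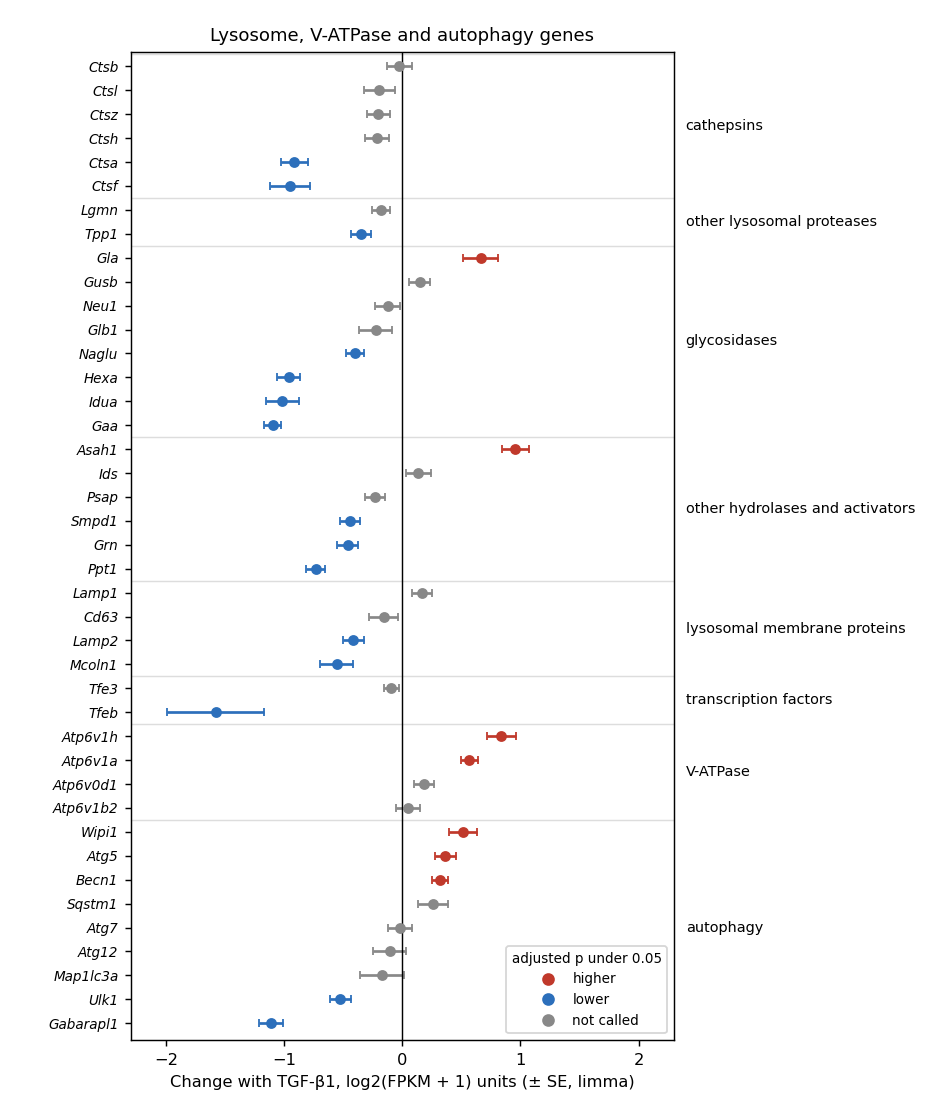
Log2 change with TGF-β1 (x axis, log2(FPKM + 1) scale, mean of 3 TGF-β1 minus mean of 3 Control libraries) for the 41 tested members, grouped by role, with bars of ± 1 SE from limma and colours for the call at an adjusted p under 0.05. Tfeb has the lowest value (-1.58) and the widest bar, Asah1 has the highest value (0.96), and V-ATPase members lie at or right of 0.

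In this plot of changes, 4 members changed by at least 1 on the log2 scale and passed the test, namely Tfeb, Gabarapl1, Gaa and Idua, and all 4 were lower. Across all tested rows 13.9% passed both limits. The 3 Control and 3 TGF-β1 values of a member did not overlap for 27 of 41 members, 9 higher and 18 lower, against 59.4% of all tested rows (29.9% higher and 29.5% lower). Scaling mattered to the number of falls. When each library was rescaled to the sum of its protein-coding rows, the median of all tested rows moved to -0.19 and 33.9% of all calls were higher (50.9% without the rescaling), and 5 members were then higher and 21 lower. Ctsh, Ctsz, Lgmn, Glb1, Psap and Tfe3 then passed as lower, and the calls of Becn1 and Atg5 were lost. With replicates 1 and 3 only, 3 members were higher and 14 lower, the calls of Gla, Grn, Becn1, Atg5 and Wipi1 being lost. Calls over all tested rows also dropped in that fit, to 35.3% (2161 rows higher and 2034 lower).

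Of the lysosomal transcription factors, 1 of 2 fell. Tfeb (mm9 chromosome 17, 47873979 to 47929368, plus strand) was at 12.2, 9.22 and 12.3 FPKM in Control and at 4.58, 1.05 and 4.86 FPKM with TGF-β1. Every Control library was above every TGF-β1 library, and the lowest TGF-β1 value, which stood for about 25 fragments, lay well under the other two of its group. The level fell by 1.58 ± 0.41 (SE) on the log2 scale (limma adjusted p = 0.0207), with a mean 3.22 times as high in Control. This call was lost without Control replicate 1 (log2 change -1.52, limma adjusted p = 0.0667) and without Control replicate 3 (-1.52, 0.0634). Tfe3, the related factor, was at 33.1, 33.7 and 32.2 FPKM in Control and 31.2, 30.8 and 30.6 with TGF-β1. The groups did not overlap but differed little, by -0.09 (95% interval -0.25 to 0.06, limma adjusted p = 0.282). The transcript named for this Tfe3 row is a retained-intron model of 636 nt, so it may not stand for the coding mRNA. The 2 factors of the family outside the members, Mitf and Tfec, averaged under 1 FPKM and were below the filter. Mitf averaged 0.829 ± 0.118 (SD, n = 3) FPKM in Control and 0.467 ± 0.123 with TGF-β1, without overlap. When no filter was applied its log2 change was -0.32 and did not pass (limma adjusted p = 0.0512).

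Promoter sequences are shown for the members whose window holds the longer form of the TFEB-type site, since these genes moved in both directions. Windows from 250 bases before to 50 after each RefSeq transcript start (GRCm38.p6) were found for 34 of the 42 measured members. The motif CACGTG, which reads the same on both strands, was present for 14 of these 34 (41.2%) and for 8.09% of all 27025 genes with a window, or 7.15% of all windows. Of the 14, 3 rose (Atp6v1a, Gla and Atg5), 5 fell (Ctsa, Ctsf, Gaa, Mcoln1 and Naglu) and 6 did not pass the test. The longer palindrome TCACGTGA, every copy of which contains CACGTG, was present for 5 members (14.7%) and for 1.12% of all genes or 0.974% of all windows. The same letters with a further G before and C after them were in the window of 0 of the 34 and of 0.37% of all genes. In the following stretches, 5′ to 3′ in the direction of transcription, capitals mark each TCACGTGA. Atp6v1a and Gla rose, Ctsa and Mcoln1 fell, and Atp6v0d1 did not pass the test.
Atp6v0d1, chr8:105566035-105566094, minus strand: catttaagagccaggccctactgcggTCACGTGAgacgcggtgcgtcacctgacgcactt
Atp6v1a, chr16:44139358-44139417, minus strand: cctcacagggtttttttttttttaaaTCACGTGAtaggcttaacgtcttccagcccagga
Ctsa, chr2:164833734-164833810, plus strand: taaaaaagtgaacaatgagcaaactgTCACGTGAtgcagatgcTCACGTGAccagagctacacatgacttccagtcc
Gla, chrX:134601167-134601255, minus strand: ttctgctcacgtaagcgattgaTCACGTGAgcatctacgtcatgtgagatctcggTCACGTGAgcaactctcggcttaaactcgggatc
Mcoln1, chr8:3500447-3500506, plus strand: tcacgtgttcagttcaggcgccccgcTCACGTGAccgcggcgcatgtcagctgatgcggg

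Ctsa and Gla each held 2 copies in their stretch and the other three held 1. A match in these letters is a description of the window and not evidence of binding, and the start sites used here come from RefSeq and not from the libraries.

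Cathepsins are the main proteases of the lysosome. Of the 9 listed, 6 were tested, 2 fell and none rose, with a median log2 change of -0.21. The share that changed, 33.3%, was below the 48.1% of all tested rows, of which 23.6% fell. Ctsf, a cysteine protease (mm9 chromosome 19, 4855129 to 4860912, plus strand), was at 15.1, 14.7 and 19.2 FPKM in Control and 9.34, 6.12 and 8.53 with TGF-β1. All 3 TGF-β1 libraries were below all Control libraries, a fall of 0.95 ± 0.17 (SE) on the log2 scale (limma adjusted p = 0.00525). Ctsa, the serine carboxypeptidase that also shields β-galactosidase and neuraminidase in a complex, was at 196, 229.6 and 222 FPKM in Control and 129, 103 and 111 with TGF-β1. Its groups were likewise separate and it fell by 0.92 ± 0.11 on the log2 scale (limma adjusted p = 0.00113). The exons of Ctsa overlap those of Neurl2 and Pltp on the opposite strand, and the counting is not stated to use strand, so reads from these genes cannot be told apart.

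Ctsl, a broad endopeptidase and the most abundant cathepsin measured, was at 698, 661 and 888 FPKM in Control and 650, 679 and 617 with TGF-β1. The groups overlapped, since the second TGF-β1 library was above the second Control library, and the change of -0.20 (95% interval -0.52 to 0.13) did not pass the test (limma adjusted p = 0.269). Ctsb, which has both endopeptidase and dipeptide-releasing activity, averaged 209 ± 24.1 (SD, n = 3) FPKM in Control and 204 ± 7.15 with TGF-β1, a change of -0.03 with an interval of -0.28 to 0.23. Ctsh and Ctsz, both exopeptidases, had log2 changes of -0.22 and -0.20 with overlapping groups (limma adjusted p = 0.116 and 0.131). Ctsk, the collagen-degrading cathepsin of osteoclasts, was below the filter at 0.351, 0.352 and 0.217 FPKM in Control and 0.497, 0.848 and 0.792 with TGF-β1. The TGF-β1 libraries were all higher, yet the values stood for only 3.47 to 12.7 fragments. When no filter was applied the log2 change of Ctsk was 0.39 ± 0.10 (SE, limma adjusted p = 0.0371). The named model of the Ctsh row has only 631 nt.

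Summed over the 7 measured cathepsins among the members, the level was 1166 to 1348 FPKM in Control and 969 to 1033 with TGF-β1, with no overlap. This sum leaves out Ctsc and Ctso, cathepsins outside the members. Ctsc rose from 33.9 ± 3.45 (SD, n = 3) to 133 ± 9.04 FPKM, and Ctso did not pass the test (log2 change -0.56, limma adjusted p = 0.0501). Ctsl made up 60.8% of the Control sum and 64.2% of the TGF-β1 sum, and Ctsa 17.6% and 11.3%. The sum was thus set mainly by a gene that did not pass the test, together with the fall of Ctsa. Of the other proteases, Tpp1, a tripeptidyl peptidase, was at 91.4, 82.9 and 94.9 FPKM in Control and 71.5, 72.5 and 66.2 with TGF-β1. All TGF-β1 values were lower, and the fall was 0.35 ± 0.084 (SE) on the log2 scale (limma adjusted p = 0.0153), a call lost without TGF-β1 replicate 3 (-0.31, limma adjusted p = 0.0553). Lgmn, the asparaginyl endopeptidase that processes cathepsins, averaged 71.0 ± 1.05 FPKM in Control and 62.5 ± 3.79 with TGF-β1, and its change of -0.18 missed the threshold (limma adjusted p = 0.0868), although the groups did not overlap. It passed as lower after rescaling to the protein-coding sum, upper quartile scaling and quantile normalization (-0.38, -0.25 and -0.32, limma adjusted p = 0.00731, 0.0312 and 0.0135).

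The glycosidases remove sugars from glycogen, glycolipids and glycosaminoglycans. Of 8 tested, 4 fell (Gaa, Hexa, Idua and Naglu), 1 rose (Gla) and 3 did not pass the test, with a median log2 change of -0.31. Gaa, the acid α-glucosidase that degrades lysosomal glycogen (mm9 chromosome 11, 119129201 to 119146768, plus strand), was at 84.5, 90.6 and 85.3 FPKM in Control and 41.4, 39.3 and 39.1 with TGF-β1. The libraries of each group lay close together and the groups far apart, a fall of 1.10 ± 0.070 (SE) on the log2 scale (limma adjusted p = 9.075e-05), the lowest adjusted p of any member.

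Hexa, the α subunit of β-hexosaminidase, was by mean the most abundant glycosidase among the members. It was at 83.3, 92.1 and 82.5 FPKM in Control and 47.5, 39.1 and 44.6 with TGF-β1. It fell by 0.96 ± 0.098 (SE) on the log2 scale (limma adjusted p = 0.000508) with no overlap, and the Control means of Gaa and Hexa, 86.8 and 86.0 FPKM, were close to each other, as were the means of 40.0 and 43.7 with TGF-β1. Idua, α-L-iduronidase, an enzyme of heparan and dermatan sulphate breakdown (mm9 chromosome 5, 109089350 to 109113576, plus strand), was at 7.34, 7.98 and 10.4 FPKM in Control and 4.04, 3.42 and 3.60 with TGF-β1. Control replicate 3 was the highest library, the groups did not overlap, and the fall was 1.02 ± 0.14 (SE) on the log2 scale (limma adjusted p = 0.00165). Exons of Idua overlap those of Dgkq and Slc26a1 on the other strand. Naglu, which acts on heparan sulphate too, averaged 18.9 ± 0.392 (SD, n = 3) FPKM in Control and 14.1 ± 0.868 with TGF-β1. It fell by 0.40 ± 0.077 (SE) on the log2 scale (limma adjusted p = 0.00661), and the call was lost when the trend with GC content and length was removed (-0.19, limma adjusted p = 0.31).

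Gla went the other way. This α-galactosidase A, which clears globotriaosylceramide (mm9 chromosome X, 131122688 to 131135664, minus strand), was at 7.29, 7.2 and 5.31 FPKM in Control and 12.4, 10.8 and 9.71 with TGF-β1. Every TGF-β1 library was above every Control library, a rise of 0.66 ± 0.14 (SE) on the log2 scale (limma adjusted p = 0.0108). Gusb (β-glucuronidase), Glb1 (acid β-galactosidase) and Neu1 (sialidase 1) did not pass the test, with log2 changes of 0.15, -0.23 and -0.13 and 95% intervals of -0.06 to 0.36, -0.57 to 0.12 and -0.39 to 0.14. Their groups overlapped, and Glb1 passed without Control replicate 3 (-0.36, limma adjusted p = 0.0464). The 8 glycosidases summed to 281 to 311 FPKM in Control and 193 to 205 with TGF-β1. Within that sum the share of Gaa went from 29.5% to 20.3% and that of Gla from 2.24% to 5.58%, so the mix of enzymes differed as well as its total.

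**Figure D2:**
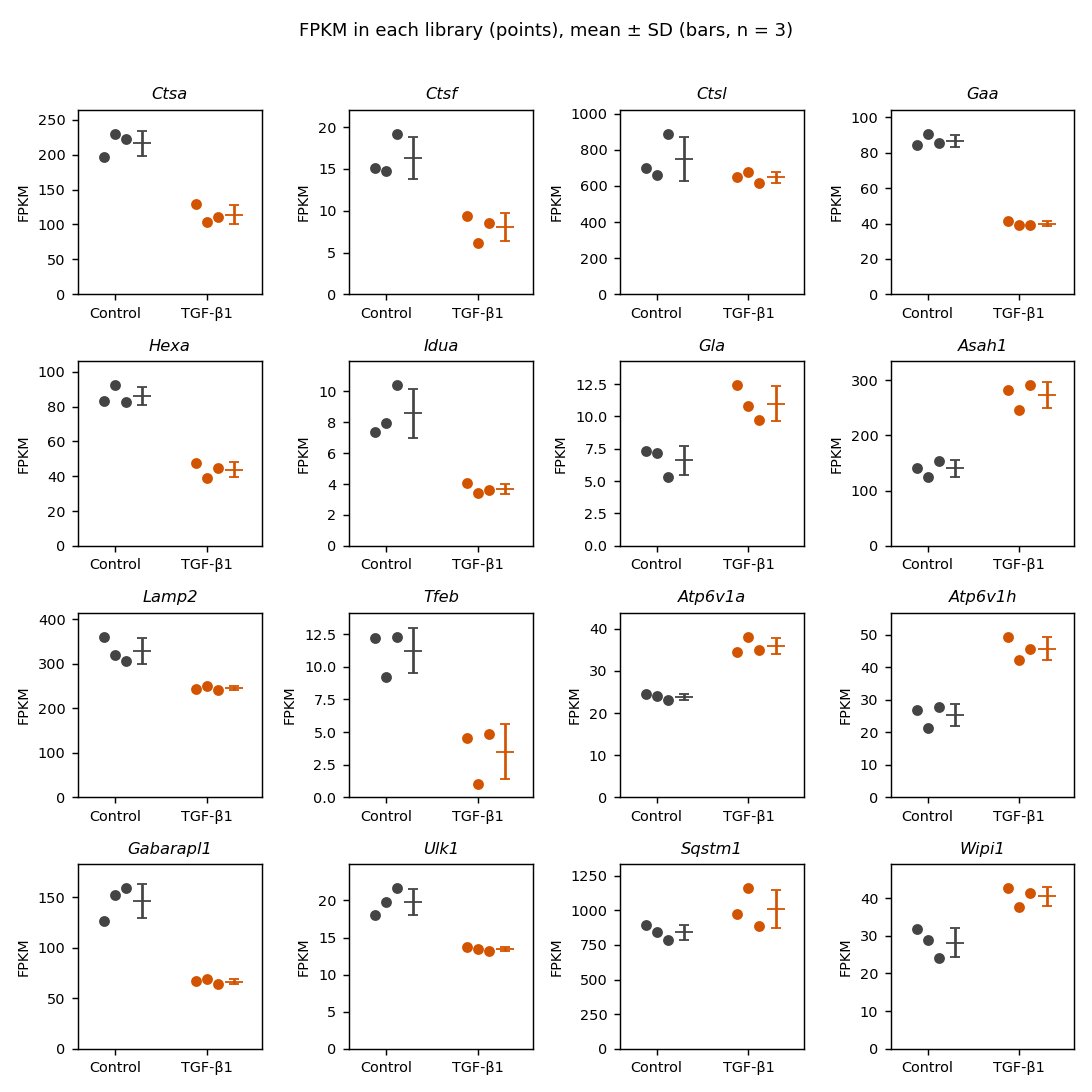
FPKM in every library (y axis, from 0) for 16 members in separate panels, with Control and TGF-β1 on the x axis, a point per library and the mean ± SD of the 3 libraries as a bar. The points of the groups are apart in the panels of Gaa, Hexa and Gabarapl1, which are lower with TGF-β1, and of Asah1 and Atp6v1h, which are higher, while those of Ctsl and Sqstm1 overlap.

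The remaining hydrolases and activators act on lipids, sulphates and lipid-modified proteins. Asah1, acid ceramidase, which turns ceramide into sphingosine (mm9 chromosome 8, 42425551 to 42460127, minus strand), was at 142, 124 and 154 FPKM in Control and 282, 246 and 290.4 with TGF-β1. In the panels by library its groups are wide apart, and it rose by 0.96 ± 0.11 (SE) on the log2 scale (limma adjusted p = 0.000941), 1.95 times its Control mean. Smpd1, the acid sphingomyelinase that makes the ceramide, went the opposite way, from 40.1 ± 2.72 (SD, n = 3) to 29.2 ± 1.38 FPKM, a fall of 0.44 ± 0.083 (SE) on the log2 scale (limma adjusted p = 0.00575). Psap, the precursor of the saposins that present sphingolipids to these enzymes, was at 569, 615 and 594 FPKM in Control and 537, 486 and 492 with TGF-β1. All TGF-β1 libraries were lower, but the change of -0.23 (95% interval -0.44 to -0.02) missed the threshold after adjustment (limma adjusted p = 0.0688). Psap passed as lower after rescaling to the protein-coding sum (-0.43, limma adjusted p = 0.00995), upper quartile scaling (-0.29, 0.0318) and quantile normalization (-0.48, 0.0118).

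Ppt1, a thioesterase that removes palmitate from proteins, was at 84.4, 74.9 and 85.1 FPKM in Control and 48.1, 49.5 and 47.7 with TGF-β1. The groups were separate and it fell by 0.74 ± 0.080 (SE) on the log2 scale (limma adjusted p = 0.000638), although its exons overlap those of Cap1 on the opposite strand. Grn, the progranulin precursor, fell by 0.46 ± 0.089 on the log2 scale from 173 ± 14.1 to 125 ± 4.76 FPKM (limma adjusted p = 0.00651). Ids, iduronate 2-sulphatase, had overlapping groups and a log2 change of 0.13 (95% interval -0.12 to 0.39). In the same glycosaminoglycan pathway, Idua and Naglu thus fell while Ids did not pass the test. The 6 genes summed to 1034 to 1042 FPKM in Control and 944 to 1039.9 with TGF-β1, so the sums overlapped. The share of Asah1 in the sum was 13.5% in Control and 27.5% with TGF-β1, while Psap, Grn and Ppt1 had lower shares.

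Of 4 membrane proteins, 2 fell and none rose, with a median log2 change of -0.29. Mcoln1, the calcium channel TRPML1 (mm9 chromosome 8, 3500457 to 3515232, plus strand), was at 53.1, 54.8 and 67.2 FPKM in Control and 37.1, 45.8 and 35.2 with TGF-β1. No TGF-β1 library reached the lowest Control library, and it fell by 0.56 ± 0.14 (SE) on the log2 scale (limma adjusted p = 0.0171). The call was lost without TGF-β1 replicate 1 (-0.52, limma adjusted p = 0.0616) and without TGF-β1 replicate 3 (-0.48, 0.0585). The structural glycoproteins Lamp1 and Lamp2, which coat the inner face of the membrane, did not move alike. Lamp2 fell from 329 ± 28.6 (SD, n = 3) to 246 ± 5.22 FPKM, by 0.42 ± 0.090 (SE) on the log2 scale (limma adjusted p = 0.0103), and Lamp1 was at 351 ± 21.7 and 393 ± 13.8 FPKM, a change of 0.16 (95% interval -0.04 to 0.37) that did not pass. Whether the changes of the pair differ was not tested. Cd63, a tetraspanin of late endosomes and exosomes and the most abundant member, was at 1379.6, 1326.5 and 1666 FPKM in Control and 1299.8, 1351 and 1247 with TGF-β1. These groups overlapped (-0.16, 95% interval -0.45 to 0.13, limma adjusted p = 0.32).

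The V-ATPase members rose or did not pass the test. Atp6v1h, the regulatory H subunit of V1 (mm9 chromosome 1, 5073254 to 5152630, plus strand), was at 26.9, 21.3 and 27.7 FPKM in Control and 49.4, 42.2 and 45.7 with TGF-β1. Each TGF-β1 library was well above each Control library, a rise of 0.84 ± 0.12 (SE) on the log2 scale (limma adjusted p = 0.00224). Atp6v1a, the catalytic A subunit, rose by 0.57 ± 0.075 from 23.9 ± 0.764 (SD, n = 3) to 35.8 ± 1.95 FPKM (limma adjusted p = 0.00146). Its partner in the catalytic ring, Atp6v1b2, was at 63.3 ± 6.85 and 65.1 ± 2.67 FPKM, a log2 change of 0.05 with a 95% interval of -0.20 to 0.29. Atp6v0d1, a V0 subunit and the most abundant of the 4, was at 221.5, 222 and 203 FPKM in Control and 254, 253 and 229 with TGF-β1. All TGF-β1 libraries were higher, yet the change of 0.18 missed the threshold (limma adjusted p = 0.12), and it was -0.01 after rescaling to the protein-coding sum and -0.08 after quantile normalization. The sum of the 4 was 309 to 340 FPKM in Control and 372 to 406 with TGF-β1.

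The wider list of V-ATPase genes held both directions. Of the other 16 subunits tested, 7 rose and 5 fell, a larger share of changes (75.0%) than the background of 48.1%, with a median of 0.16. The largest rises were of Atp6v1g1, a V1 stalk subunit (149.9 ± 17.4 to 269.5 ± 13.5 FPKM, log2 change 0.85), and of Atp6ap2, the prorenin receptor and accessory subunit (40.7 ± 5.18 to 72.1 ± 1.67 FPKM, 0.82). The largest falls were of Atp6v1g2, the neuronal form of the same stalk subunit (13.6 ± 3.99 to 3.26 ± 0.855 FPKM, -1.76), and of Atp6v0a4, a V0 form known from acid-secreting kidney cells (2.66 ± 0.0628 to 1.08 ± 0.225 FPKM, -0.82). The G1 and G2 forms were at unlike levels, so that G1 was the main form in both groups.

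**Figure D3:**
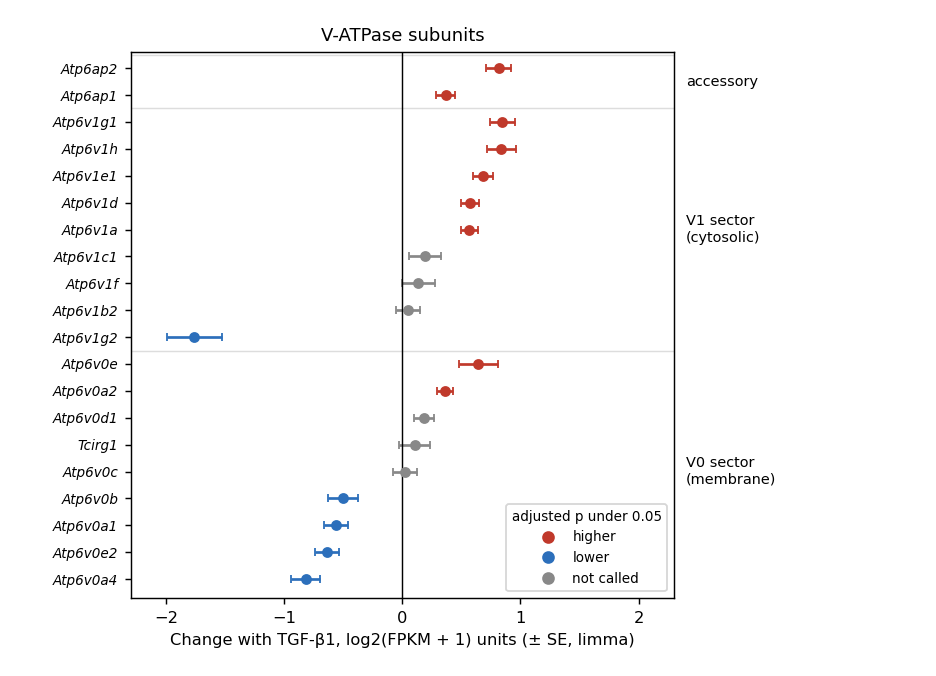
Log2 change with TGF-β1 (x axis, log2(FPKM + 1) scale, ± 1 SE from limma) for the 20 tested V-ATPase genes, grouped as V1, V0 and accessory subunits and coloured by call. In V1, 5 lie right of 0 with a call and Atp6v1g2 lies far to the left at -1.76, whereas V0 holds 2 rises and 4 falls.

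When the 20 tested genes were arranged by sector, a grouping made after the values were seen, 5 of 9 V1 genes rose and 1 fell (median log2 change 0.57), 2 of 9 V0 genes rose and 4 fell (0.02), and both accessory genes rose (0.59). Of all tested rows 24.5% rose and 23.6% fell, and the sectors were not tested against these shares or each other. The V0 rises were Atp6v0a2 and Atp6v0e, and the V0 falls were Atp6v0a1, Atp6v0a4, Atp6v0b and Atp6v0e2. The V1 counts were the same after each of the 3 rescalings, with medians of 0.38 to 0.51, while V0 rises numbered 1 after rescaling to the protein-coding sum and after quantile normalization, and the V0 median was then -0.17 and -0.21. Of the accessory genes 1 rose after these rescalings, the call of Atp6ap1 being lost (limma adjusted p = 0.118 and 0.248). Over all 11898 tested rows, 2015 rose and 3927 fell after rescaling to the protein-coding sum. The counts were 2573 and 3121 after upper quartile scaling, and 2913 and 2600 after quantile normalization. The calls of Atp6v0e and Atp6v0b were lost without single TGF-β1 libraries, for Atp6v0e without replicate 1 (limma adjusted p = 0.0657) or 2 (0.0529) and for Atp6v0b without replicate 1 (0.0624) or 3 (0.0645).

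Autophagy members moved in both directions, with 3 of 9 higher, 2 lower and a median log2 change of -0.02. Gabarapl1, an ATG8-family protein that is attached to the autophagosome membrane (mm9 chromosome 6, 129483218 to 129492349, plus strand), was at 127, 152 and 159 FPKM in Control and 66.8, 68.7 and 64.3 with TGF-β1. The TGF-β1 libraries lay close together and far below Control, a fall of 1.11 ± 0.10 (SE) on the log2 scale (limma adjusted p = 0.000345). Its exons overlap a long non-coding RNA gene, 1700101I11Rik, on the opposite strand. Its close relatives outside the members did not fall with a call. Gabarapl2 rose by 0.36 ± 0.080 from 92.6 ± 3.85 to 119.5 ± 7.13 FPKM (limma adjusted p = 0.0108). That call was lost after rescaling to the protein-coding sum (0.136) and quantile normalization (0.122). Gabarap, at 1300 ± 212 and 1112 ± 94.9 FPKM, did not pass the test (-0.22, limma adjusted p = 0.282). Map1lc3a, an LC3 protein of the same family, averaged 80.7 ± 19.7 (SD, n = 3) FPKM in Control and 69.8 ± 2.59 with TGF-β1. The wide Control spread came from replicate 3 at 58.1 FPKM, against 93.8 and 90.3 in the others, and without it the change of -0.18 became -0.39 (limma adjusted p = 0.471 with it and 0.00862 without).

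Wipi1, a phosphoinositide-binding protein of early autophagosomes, was at 31.7, 28.8 and 24 FPKM in Control and 42.6, 37.6 and 41.2 with TGF-β1. It was higher in every TGF-β1 library and rose by 0.52 ± 0.12 (SE) on the log2 scale (limma adjusted p = 0.0125), a call lost without TGF-β1 replicate 1 (0.48, limma adjusted p = 0.0502). Becn1, a subunit of the class III phosphoinositide 3-kinase complex, rose by 0.31 ± 0.068 from 36.2 ± 1.13 to 45.2 ± 1.09 FPKM (limma adjusted p = 0.0101), and Atg5, part of the conjugation machinery, by 0.36 ± 0.089 from 16.7 ± 1.55 to 21.7 ± 0.387 FPKM (limma adjusted p = 0.0167). Both calls were lost after rescaling to the protein-coding sum (limma adjusted p = 0.187 and 0.128) and when the trend with GC content and length was removed (0.0904 and 0.083), and that of Atg5 also without TGF-β1 replicate 1 (0.0636) or 3 (0.0516). Exons of Becn1 overlap those of Cntd1 on the opposite strand. Ulk1, a kinase that starts autophagosome formation, fell by 0.53 ± 0.088 from 19.8 ± 1.81 to 13.4 ± 0.285 FPKM (limma adjusted p = 0.00384). Its relative Ulk2, outside the members, went the other way. Ulk2 rose by 0.53 ± 0.079 from 9.74 ± 0.456 to 14.5 ± 0.681 FPKM (limma adjusted p = 0.00236).

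Sqstm1, the cargo receptor p62, which is itself degraded by autophagy, was at 894, 843 and 783 FPKM in Control and 975, 1158.5 and 889 with TGF-β1. The lowest TGF-β1 library was just under the highest Control library, and the change of 0.26 (95% interval -0.05 to 0.56) did not pass the test (limma adjusted p = 0.146). Atg7 and Atg12, both of the conjugation machinery, had overlapping groups with changes of -0.02 (-0.27 to 0.23) and -0.11 (-0.44 to 0.23). RNA levels alone do not give the rate of autophagy, which was not measured here. The 9 genes summed to 1134 to 1252 FPKM in Control and 1174 to 1447 with TGF-β1, with overlap, and Sqstm1 made up 69.9% and 77.7% of the sum.

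**Figure D4:**
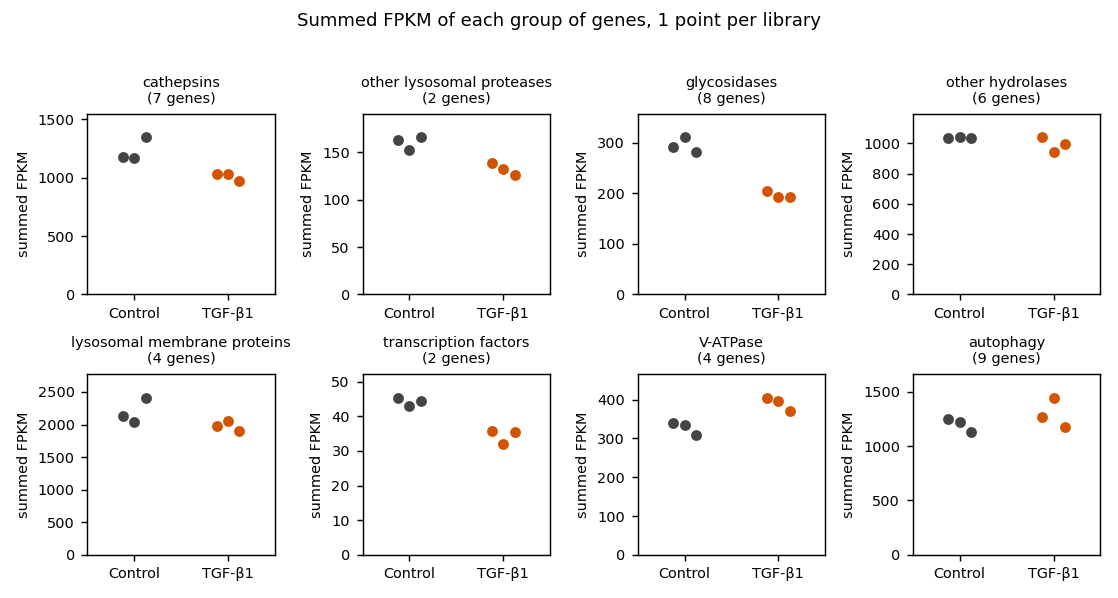
Summed FPKM per library (y axis, from 0) for each of the 8 groups of members, with a point for each of the 3 Control and 3 TGF-β1 libraries. Sums are lower in all TGF-β1 libraries for cathepsins, other proteases, glycosidases and transcription factors, higher for the V-ATPase, and overlapping for the other hydrolases, membrane proteins and autophagy genes.

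Per length of transcript, the 5 most abundant members were Cd63, Sqstm1, Ctsl, Psap and Lamp1, in this order of mean FPKM in both groups. None of the 5 passed the test. In the plot of group sums each of them weighs on the sum of its own group. Below them the order moved more, since Asah1 ranked 12 of the 42 measured members in Control and 6 with TGF-β1, Ctsa ranked 7 and 11, and Gaa ranked 14 and 22. The median level of the tested members was 40.1 FPKM in Control and 40.5 with TGF-β1, and that of all tested rows in Control was 12.0 FPKM. The median SD of log2(FPKM + 1) over members was 0.126 in Control and 0.078 with TGF-β1, against 0.152 and 0.125 over all tested rows.

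Lists of further genes of the same pathways were drawn up by role. Of 101 such genes tested, 22 rose (21.8%) and 30 fell (29.7%), and the median log2 change was -0.11. The share that changed, 51.5%, was near the 48.1% of all tested rows, of which 24.5% were higher and 23.6% lower. Among 23 other lysosomal hydrolases 4 rose (17.4%) and 10 fell (43.5%), with a median of -0.28. The largest rise was of Ctsc (cathepsin C), the dipeptidyl peptidase that activates serine proteases of immune cells. It went from 33.9 ± 3.45 (SD, n = 3) to 133 ± 9.04 FPKM (log2 change 1.94 ± 0.10 SE, limma adjusted p = 4.419e-05). Next came Naaa, which hydrolyses N-acylethanolamines (7.93 ± 0.591 to 13.4 ± 1.59 FPKM, 0.68). The largest fall was of Sgsh, a sulphatase of heparan sulphate breakdown, from 7.76 ± 1.39 to 2.70 ± 0.192 FPKM (-1.23).

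Of 18 other membrane and sorting proteins 4 rose (22.2%) and 6 fell (33.3%), with a median of -0.18, against 24.5% and 23.6% of all tested rows. Igf2r, the mannose 6-phosphate receptor that carries hydrolases to the lysosome, rose from 5.48 ± 0.742 to 9.38 ± 0.627 FPKM (0.69). Slc17a5, the sialic acid exporter, fell from 6.78 ± 0.638 to 3.54 ± 0.322 FPKM (-0.78), and Cln3, a membrane protein lost in a neuronal storage disease, from 12.6 ± 1.45 to 6.98 ± 2.82 FPKM (-0.82). The call of Cln3 depended on single libraries, with a limma adjusted p of up to 0.122 when a library was left out.

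Of 31 other autophagy genes 5 rose (16.1%) and 7 fell (22.6%), with a median of -0.05. The share that changed, 38.7%, was below the 48.1% of all tested rows. Epg5, a tether for fusion with lysosomes (listed as 5430411K18Rik), rose from 2.07 ± 0.265 to 5.48 ± 0.208 FPKM (1.08), and Bnip3, a mitophagy receptor, from 17.0 ± 2.45 to 28.8 ± 2.35 FPKM (0.73). Optn and Calcoco1, both cargo receptors, fell from 11.5 ± 1.18 to 5.15 ± 0.819 FPKM (-1.02) and from 102 ± 6.13 to 51.1 ± 8.16 FPKM (-0.999). Of 13 other regulators 2 rose and 2 fell (median -0.04), so that 30.8% changed, also below that background. The Rag GTPases, which report amino acids to the kinase complex mTORC1 at the lysosome, did not move alike, Rraga rising from 46.0 ± 3.24 to 86.6 ± 2.27 FPKM (0.90) and Rragd falling from 2.55 ± 0.327 to 0.668 ± 0.0971 FPKM (-1.09), while Rragc did not pass the test (0.28, limma adjusted p = 0.119). Foxo1 rose from 7.86 ± 0.348 to 11.8 ± 1.59 FPKM (0.53), and Flcn, a partner of the Rag proteins, fell from 15.2 ± 1.84 to 11.7 ± 0.806 FPKM (-0.35), a call that was lost in fits without a single library (limma adjusted p up to 0.13).

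Several rows stand for genes that share sequence with a neighbour. Exons of 10 members overlap exons of another annotated gene in mm9, 9 of them on the opposite strand, and for these the share of the neighbour in the value is unknown. Besides those named above, they are Ctsb (Fdft1), Ctsz (Th1l), Lamp1 (Grtp1), Sqstm1 (3010026O09Rik) and Glb1, which overlaps a second model of its own name on the same strand. The annotation gives 32 of the 42 members more than 1 transcript, and whether a row sums all transcripts of a gene is not stated, so a change of a row may be of a transcript or of the gene.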

How the data were processed

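The libraries were 3 Control and 3 TGF-β1 libraries, grouped by their treatment label. The authors aligned reads to mouse mm9 (TopHat2 2.0.11 in the submitters' processing notes) and deposited FPKM values made with Cufflinks, as a table of 19730 rows in which whether a row is a gene or a transcript, and whether strand was used, were not stated. FPKM are no counts, so the count model of the study was replaced by limma 3.58.1 (R 4.3.3) on log2(FPKM + 1) of rows with a mean of at least 1 FPKM, with a mean-variance trend, two-sided, and Benjamini-Hochberg adjustment over 11898 rows. Fold changes on this scale understate those of low genes. The script was tested on simulated data. Depth was inferred from the steps between low values, 99.4% to 99.9% of which were whole fragments within 0.1, against 29.4% to 32.1% after jittering. Coordinates are from GENCODE M1 (mm9). Members and lists were chosen with earlier results of these data known. Values in every library were given for members that changed by at least 1 on the log2 scale, the most abundant member and the largest called rise and fall of each group, Tfeb, Tfe3, Ctsa by choice after its values were seen, and untested members; of each further list, the 2 largest called rises and falls. Some of these are not reported here. Alternatives changed the pseudocount, filter, trend, scaling, threshold, library set, block, and a correction for GC content and length.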

Additional observations from a re-analysis of the deposited data

How the results depend on the processing

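Of the 22 called members, 22 kept their direction under all 19 alternatives, 12 kept the call under all, and 17 in every fit without 1 library. Replicate numbers were not taken as pairs, because the study states no pairing. Same-numbered libraries deviated together at 0.092, 0.232 and 0.085 for replicates 1, 2 and 3. Control replicate 1 correlated best with TGF-β1 replicate 3 (0.117), and all remaining pairs lay at -0.194 to -0.016. These values do not settle whether libraries of the same number share an origin. With the replicate block the counts were 22 members and 5391 of all tested rows, and no member's call changed. With replicate 2 as a batch term they were 22 and 5947.

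After rescaling to the protein-coding sum, 4 cathepsins, 2 other proteases, 2 transcription factors and 3 autophagy genes were called, and the median log2 changes were -0.4 for cathepsins, -0.46 for other proteases, -0.5 for glycosidases, -0.53 for other hydrolases, -0.48 for membrane proteins, 0.18 for the V-ATPase and -0.2 for autophagy. The sign turned for Gusb (-0.04), Ids (-0.05), Lamp1 (-0.03), Atp6v0d1 (-0.01) and Atp6v1b2 (-0.15), none of them called. Upper quartile scaling gave 2 other proteases, medians of -0.33 for these and -0.35 for membrane proteins, and -0.02 for Atp6v1b2. Quantile normalization gave 2 other proteases and medians of -0.36 for cathepsins, -0.41 for other proteases, -0.5 for other hydrolases, -0.45 for membrane proteins and 0.21 for the V-ATPase, with Lamp1 at -0.03, Atp6v0d1 at -0.08, Atp6v1b2 at -0.08 and Atg7 at 0.0. With the trend of GC content and length removed, in which Tfe3 had no value, 3 autophagy genes were called, medians were -0.34 for other proteases, -0.18 for glycosidases, -0.23 for other hydrolases, -0.33 for membrane proteins and -1.32 for Tfeb alone, and Neu1 was at 0.02, Ids at -0.02, Atp6v1b2 at -0.01, Atg7 at 0.05 and Map1lc3a at 0.07. The rescaling moves every row alike, and the cause of the other shifts was not tested.

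At an adjusted p under 0.01, 14 members (3 of them higher) and 3672 of all tested rows (1727 lower) passed, with 0 other proteases, 0 membrane proteins, 0 transcription factors, 2 autophagy genes and 4 other membrane and sorting proteins. By limma at an adjusted p under 0.05 the counts of these groups were 1, 2, 1, 5 and 10. With replicates 1 and 3 only, 3 members were higher, 2 autophagy genes and 3 other membrane and sorting proteins were called, the membrane protein median was -0.35 and Atg7 was at 0.02. Over the fits without 1 library, called members numbered 19 to 24, and 4419 to 5446 of all tested rows were called. Among the groups, called transcription factors numbered 0 to 1, other proteases 0 to 1, and membrane proteins 1 to 2 with medians of -0.33 to -0.26. Autophagy genes numbered 3 to 6, and other membrane and sorting proteins 6 to 9. In these fits the sign turned for 4 members with no call, Ctsb (-0.12 to 0.04), Atp6v1b2 (-0.05 to 0.09), Atg7 (-0.12 to 0.03) and Atg12 (-0.19 to 0.03). An adjusted p for a library's removal assumes that the group of 2 varies like the group of 3. Ctsk, at most 12.7 fragments per library, and Tfeb in TGF-β1 replicate 2, at 25.0 fragments, are limited by depth.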
